A study of Mus musculus with 18 samples.

Results

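Larynges of mice that breathed e-cigarette aerosol were compared with larynges of mice kept in room air. The comparison holds 12 of the 18 libraries of the series, 6 per group, chosen by their labels, and the other 6 came from mice exposed to smoke of 3R4F research cigarettes. All groups were males of the inbred strain C57BL6/J at 8 to 9 weeks of age, with no other genotype named. Aerosol came from JUUL e-cigarettes with the Virginia tobacco liquid and was given in an inEXPOSE chamber that holds the whole animal, for 1 hour a day on 5 days a week over 4 weeks, and room air served as the control. RNA of the whole larynx was sequenced to 15.6 to 17.1 x 1e6 counts per library in air and 16.7 to 22.5 x 1e6 in the e-cigarette group. The labels name individual mice per group, but nothing in them ties a library to a single mouse. The p-values therefore cover the spread among libraries, which may be technical.

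The larynx carries squamous, ciliated and secretory epithelium with glands beneath it, on plates of cartilage that are moved by striated muscle. The thyroid and parathyroid glands lie against it, and a dissected larynx can carry them along. An e-cigarette heats nicotine in propylene glycol and glycerol. Nicotine opens the acetylcholine receptors found on nerve and muscle, while inhaled chemicals meet epithelium that answers with mucus, detoxifying enzymes and, where proteins misfold, the unfolded protein response. The labelled tissue was checked against its markers. The muscle myosin Myh4 lay between 4284 and 15850 CPM (counts per 1e6 counts of the library, after scaling) over the 12 libraries, and the squamous keratin Krt13 between 1343 and 9527 CPM. The cartilage proteoglycan Acan lay between 6.09 and 240.5 CPM, and was at 17.6, 6.09 and 7.01 CPM in air 4, 5 and 6. These 3 libraries were low in cartilage and gland transcripts, so the gland, cartilage and other lists named with them are also given without them and without air 1, 2 and 3.

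Of 17537 genes tested, 4406 (25.1%) were called at an adjusted p below 0.05, 2128 higher with e-cigarette aerosol (12.1%) and 2278 lower (13.0%). The number called and at least 2-fold higher was 385 (2.20%), and 692 (3.95%) were called and at least 2-fold lower. The 6 e-cigarette libraries all lay above or all below the 6 air libraries in 1843 genes (10.5%), above in 790 (4.50%) and below in 1053 (6.00%). These shares of all tested genes are the background for the counts given for gene lists. Scaled to total counts alone, without the TMM factors that correct for a few dominant genes, the calls were 1432 higher and 3384 lower. The median log2 fold change of all genes shifted by -0.11 under that scaling, against 0.01 as reported.

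Thyroglobulin, Tg (ENSMUSG00000053469, chromosome 15, 66670753 to 66850721 in the GRCm38 coordinates of the deposited table), is the protein that thyroid follicles store. It took 6.13% to 10.2% of all counts in air. Its share in the e-cigarette group, replicates 1 to 6 in order, was 2.69%, 0.0729%, 2.77%, 0.00854%, 0.00795% and 0.271%, so the highest e-cigarette library lay below the lowest air library. Smoke libraries held 5.87% to 9.24%. Tg itself was not called (log2 fold change -2.88, SE 1.08, adjusted p = 0.0636), but was called without e-cigarette 1 (-3.49, adjusted p = 0.0455) or e-cigarette 3 (-3.60, adjusted p = 0.0368). In bulk tissue, fewer cells of a type and less RNA per cell cannot be told apart.

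**Figure D1:**
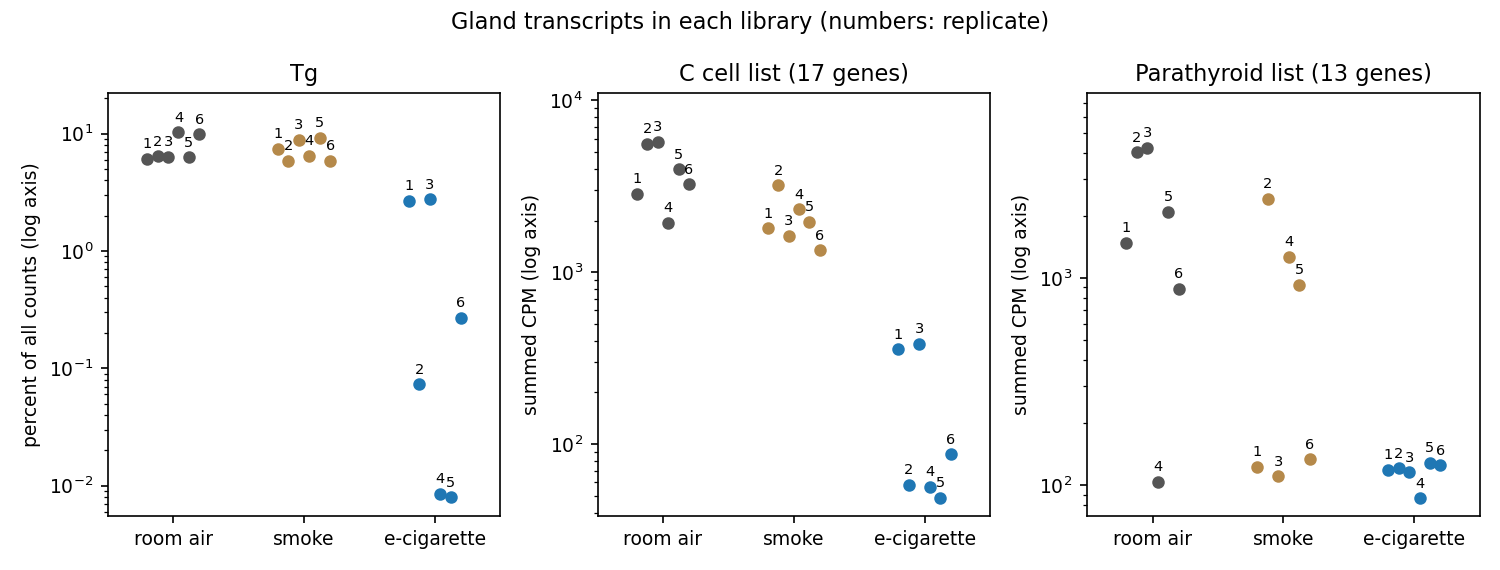
Each point is 1 library, numbered by replicate, for room air, smoke and e-cigarette (6 libraries each). From left to right are Tg as a percent of all counts, the summed CPM of 17 C cell genes and the summed CPM of 13 parathyroid genes, all on log axes. E-cigarette 1 and 3 hold 2.69% and 2.77% Tg, the other 4 at most 0.271%, and air 4 holds as little parathyroid RNA as the e-cigarette libraries.

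Of 18 genes of thyroid follicular cells, 13 fell and 1 rose (median log2 fold change -2.47, against 0.01 for all genes). The iodide transporter Slc5a5 was between 34.3 and 53 CPM (median 44.1) in air and between 0.756 and 14.7 CPM (median 1.62) in e-cigarette libraries. The groups did not overlap, and e-cigarette 1 and 3 were the highest of their group at 14.7 and 8.66 CPM (log2 fold change -3.20, SE 0.58, adjusted p = 0.000832). Without e-cigarette 1 the fold change was -4.01. The thyroid transcription factor Nkx2-1 fell by 2.13 on the log2 scale, and the thyrotropin receptor Tshr by 2.37, though Tshr was not called with the covariate (-1.50, adjusted p = 0.112). Of 17 genes of C cells, the thyroid's calcitonin-producing cells, 14 fell and 0 rose (median -2.68). Their calcitonin gene Calca was between 1203 and 2822 CPM (median 1471) in air and between 2.25 and 244 CPM (median 13.9) in e-cigarette libraries, with e-cigarette 1 and 3 the highest of their group (log2 fold change -4.42, SE 1.02, adjusted p = 0.00505, and -5.14 without e-cigarette 3). The granule protein Scg3 was between 21.2 and 29.3 CPM (median 23.6) in air and between 2.63 and 7.66 CPM (median 3.22) in e-cigarette libraries (log2 fold change -2.51, SE 0.22, adjusted p = 1.58e-06). Of 13 parathyroid genes 12 fell (median -4.81), with no overlap between the groups in 4, against 10.5% of all genes. The hormone gene Pth was at 1216, 3581, 3742, 2.34, 1919 and 751 CPM in air 1 to 6 and at 0 to 6.03 CPM in all e-cigarette libraries, so air 4 held as little as they did (log2 fold change -9.62, SE 2.27, adjusted p = 0.00575).

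Since exposure and thyroid content moved together, results are given in 2 further ways. The first takes log2 Tg CPM as a covariate, with its slope fitted within the groups. Log2 Tg CPM was 15.8 to 16.6 in air and 6.38 to 14.8 in the e-cigarette group. These ranges do not overlap, so the adjusted difference extrapolates, and the slope rests mostly on the e-cigarette libraries, where Tg varied most. The second compares only e-cigarette 1 and 3, which retained over 1% Tg, with air. With the covariate, 364 genes (2.08%) were called, 119 higher (0.679%) and 245 lower (1.40%). That count changed with single libraries: it was 48 without e-cigarette 1, 108 without e-cigarette 3 and 235 without e-cigarette 4. With e-cigarette 1 and 3 alone, 688 of 18522 genes (3.71%) were called, 238 higher (1.28%) and 450 lower (2.43%). Called in all 3 fits with the same sign were 353 genes, 109 higher and 244 lower. The sign was the same with the covariate in 4396 of the 4406 called genes (99.8%), and with e-cigarette 1 and 3 in 4405. These fits reuse libraries of the fit that chose the genes, so a shared sign is no independent check on thyroid content. With the percent of Tg in place of its log2 as covariate, 1 gene was called (0.00570%). The covariate did not remove the thyroid difference: 5 follicular and 10 C cell genes were still called lower with it (medians -1.01 and -1.73), and of the parathyroid list 0 were called by edgeR but 11 were lower at an unadjusted p below 0.05 (median -5.95). At that threshold 8.31% of all tested genes were higher and 7.93% lower with the covariate, and 8.90% and 10.2% with e-cigarette 1 and 3 alone, which is the background for the unadjusted counts of other lists. Exposure and thyroid content cannot be told apart in these libraries beyond such comparisons.

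**Figure D2:**
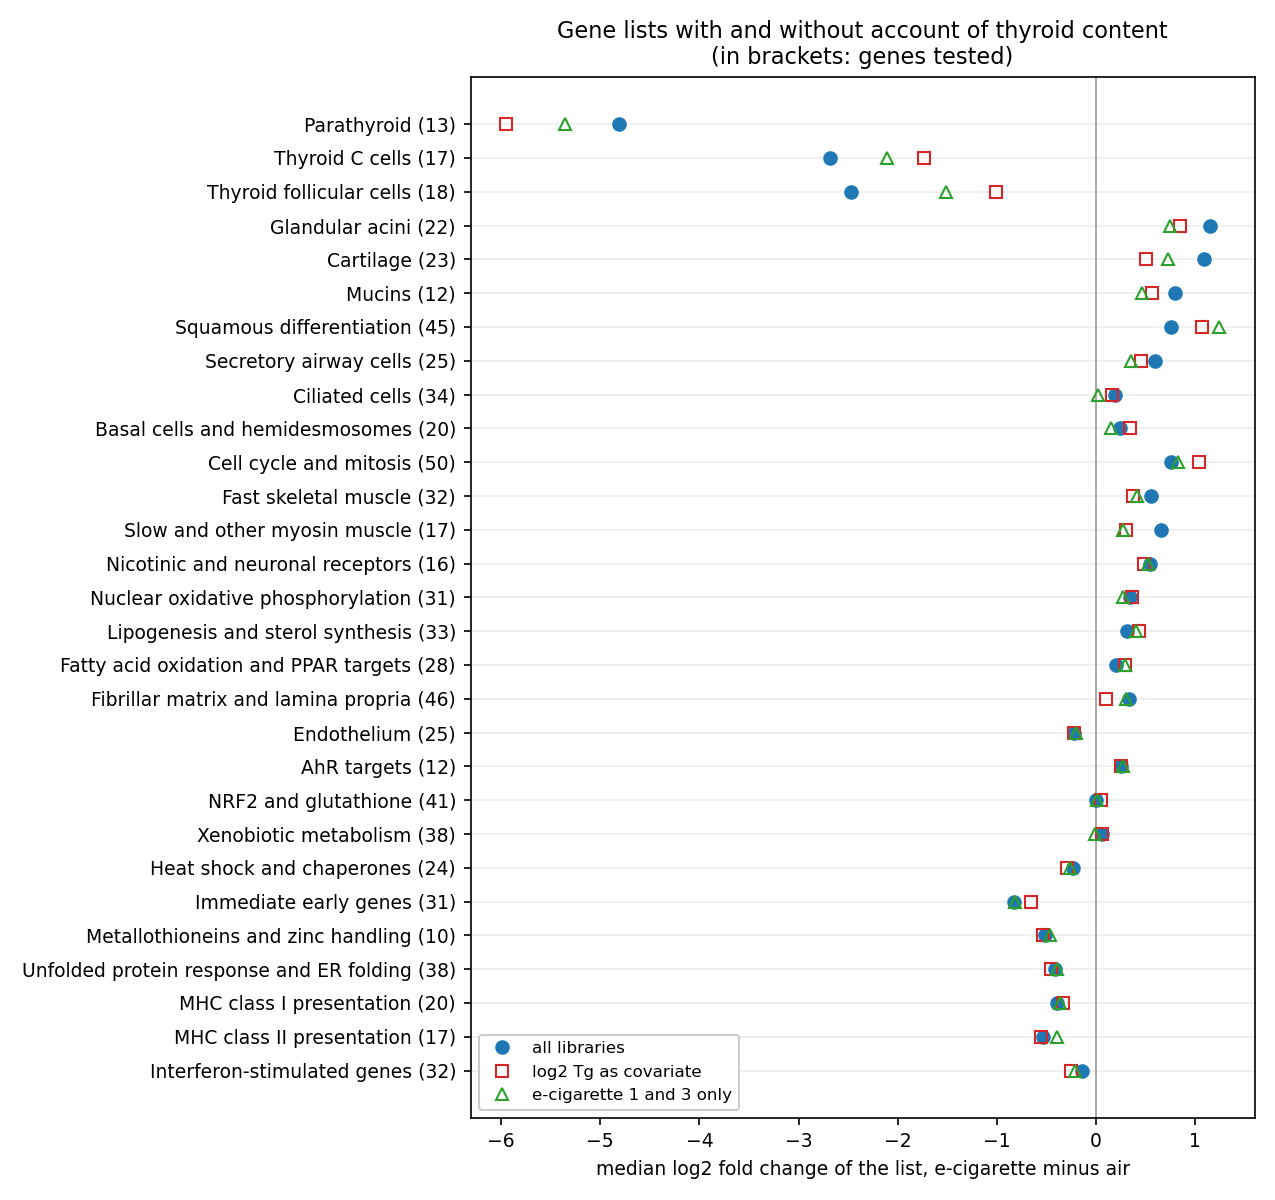
Median log2 fold change of each gene list, e-cigarette minus air, from all libraries (filled circles), with log2 Tg as covariate (squares) and from e-cigarette 1 and 3 only (triangles). The thyroid and C cell medians move toward 0 under both (-2.47 to -1.01 and -1.51 for follicular cells), while the cell cycle and unfolded protein response lists lie on the same side of 0 in all 3.

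Many of the genes that fell were highest where Tg was retained. E-cigarette 1 and 3 both lay above the other 4 e-cigarette libraries in 676 of the 2278 lower genes (29.7%) and in 400 of the 692 that were at least 2-fold lower (57.8%), against 6.93% of all tested genes. In 12 of 13 lower follicular genes and 12 of 14 lower C cell genes this order was present, and in 1 of 12 lower parathyroid genes. The reverse order, with e-cigarette 1 and 3 lowest, held in 298 of the 2128 higher genes (14.0%), against 5.29% of all. Outside the 3 gland lists, 11 of the 12 largest decreases named by rule (groups not overlapping, same sign in the fits for Tg) had e-cigarette 1 and 3 highest. Among them were the opioid-family peptide gene Pnoc (-3.97), the neuropeptide Npy (-3.30), the aspartic protease Napsa (-3.27), the ubiquitin ligase Rnf183 (-3.70, and -4.47 without e-cigarette 1) and the phosphatase Dusp2 (-4.60, and -3.77 without air 3). The exception was the stress cytokine Gdf15 (-3.89), where e-cigarette 6 lay above e-cigarette 3. Napsa was between 67.0 and 87.9 CPM (median 75.1) in air and between 1.04 and 19.3 CPM (median 3.32) in e-cigarette libraries, with 19.3 and 18.4 CPM in e-cigarette 1 and 3 and at most 5.11 CPM in the rest. It was called with the covariate at -1.49, adjusted p = 0.00598. Whether such genes are expressed by the thyroid in these mice was not tested.

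Cell cycle genes were higher after e-cigarette aerosol. Of 50 cell cycle and mitosis genes, 28 rose and 1 fell (median 0.76), where 12.1% of all genes rose. With the covariate 10 rose (median 1.03, and 32 at an unadjusted p below 0.05), with e-cigarette 1 and 3 alone 10 rose (median 0.83), and in 0 of the 28 were e-cigarette 1 and 3 the 2 highest or the 2 lowest of their group. Without air 4, 5 and 6, 21 rose, and without air 1, 2 and 3, 13 rose. With air 4, 5 and 6 left out, 1938 of all 17537 genes rose and 2557 fell. With air 1, 2 and 3 left out, 2104 rose and 2018 fell. These all-gene counts are the background for every list count from the smaller air groups. Against smoke, 10 of the 50 were higher with e-cigarette aerosol and 0 were lower, where 6.10% of all genes were higher and 10.4% lower.

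Topoisomerase 2 alpha, Top2a (ENSMUSG00000020914, chromosome 11, 98992943 to 99024189), untangles DNA before division. It was between 10.1 and 15.9 CPM (median 11.4) in air and between 14.8 and 37.2 CPM (median 29.8) in e-cigarette libraries. E-cigarette 4 overlapped air at 14.8 CPM, while the other 5 lay above all air libraries (log2 fold change 1.15, SE 0.22, adjusted p = 0.000756). With the covariate Top2a was at 1.62, adjusted p = 0.0086, with e-cigarette 1 and 3 at 1.29, adjusted p = 0.00721, and against smoke at 0.96, adjusted p = 0.00541. The furrow protein Anln (ENSMUSG00000036777, chromosome 9, 22332012 to 22389188) was between 6.61 and 8.01 CPM (median 7.33) in air and between 10.8 and 20.0 CPM (median 16.3) in e-cigarette libraries, with no overlap (log2 fold change 1.11, SE 0.18, adjusted p = 0.000156). It was called with the covariate at 1.44, adjusted p = 0.00592, and against smoke at 0.75, adjusted p = 0.00614. The spindle midzone protein Prc1 was between 5.23 and 7.57 CPM (median 6.31) in air and between 7.93 and 13.9 CPM (median 10.8) in e-cigarette libraries (log2 fold change 0.77, SE 0.14, adjusted p = 0.000559), and at 0.99, adjusted p = 0.0185 with the covariate. The proliferation marker Mki67 was between 7.44 and 19.9 CPM (median 14.6) in air and between 17.5 and 48.1 CPM (median 29.5) in e-cigarette libraries, with e-cigarette 4 inside the air range (log2 fold change 1.20, SE 0.32, adjusted p = 0.0101), and was not called with the covariate (1.60, adjusted p = 0.0821), without air 1, 2 and 3 (0.86, adjusted p = 0.137) or against smoke (0.84, adjusted p = 0.0761). In Anln, Top2a, Prc1 and Mki67 alike, e-cigarette 4 and 5 were the 2 lowest of their group, and they were also the 2 with the least Tg.

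An element of cell cycle promoters was searched in the list. The cell cycle genes homology region, CHR (letters TTTGAA on either strand), is bound by the MuvB complexes that switch G2 and M phase genes. It lay in 20 of 39 list genes with a RefSeq promoter (GRCm38.p6, from 250 bases before to 50 bases after the start), in 52.4% of their windows against 17.9% of all 32851 windows. Of the 20 with a match 17 rose (median 0.88), and of the 19 without one 6 rose (median 0.26). Outside the list, 13.5% of 1839 genes with a match rose, close to 12.1% of all genes. The element is shown for 3 members that rose, 5′ to 3′ on the gene's strand with matches in capitals. Ect2, a cytokinesis regulator, was chosen for display after its values were seen (log2 fold change 0.89, SE 0.21, adjusted p = 0.00445, and 0.64, adjusted p = 0.0713 without air 1, 2 and 3).
Top2a, chr11:99024333-99024398, minus strand: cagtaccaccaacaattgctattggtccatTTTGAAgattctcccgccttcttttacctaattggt
Mki67, chr7:135716460-135716525, minus strand: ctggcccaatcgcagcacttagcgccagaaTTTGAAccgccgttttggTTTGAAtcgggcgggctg
Ect2, chr3:27153957-27154022, minus strand: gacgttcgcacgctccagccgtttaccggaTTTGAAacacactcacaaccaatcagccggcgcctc
The first matches begin 179, 116 and 114 bases before the start. The windows of all 3 genes hold 2 matches, and only the Mki67 stretch shows both. A match describes the letters only.

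Genes of the unfolded protein response were lower. This response raises chaperones and folding enzymes of the endoplasmic reticulum when secreted proteins misfold, and secretory cells run it at a high level. Of 38 tested genes 20 fell and 1 rose (median -0.41, with 13.0% of all genes lower). The groups did not overlap in 15, against 10.5% of all genes. With the covariate 5 fell (median -0.45, and 19 at an unadjusted p below 0.05), and with e-cigarette 1 and 3 alone 6 fell (median -0.40). In 6 of the 20, e-cigarette 1 and 3 were the 2 highest of their group. Without air 4, 5 and 6, 21 fell, and without air 1, 2 and 3, 20 fell. Against smoke 13 were lower and 0 higher, where 10.4% of all genes were lower and 6.10% higher. The thyroid is itself rich in this machinery, and its part in the decrease was not tested beyond these values.

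The master chaperone Hspa5, also called BiP (ENSMUSG00000026864, chromosome 2, 34771970 to 34777547), was between 838 and 1863 CPM (median 1232) in air and between 493 and 710.1 CPM (median 588) in e-cigarette libraries. All 6 e-cigarette libraries lay below all 6 air libraries (log2 fold change -1.13, SE 0.17, adjusted p = 8.06e-05). It was at -0.99, adjusted p = 0.0551 with the covariate, at -0.99, adjusted p = 0.0489 with e-cigarette 1 and 3, and at -0.50, adjusted p = 0.0443 against smoke. Creld2, a secreted stress protein, was between 93.9 and 227 CPM (median 119) in air and between 33.2 and 61.5 CPM (median 47.9) in e-cigarette libraries (log2 fold change -1.51, SE 0.19, adjusted p = 2.47e-05), and was called with the covariate at -1.26, adjusted p = 0.036. Sdf2l1, a partner of Hspa5, was between 51.8 and 94.8 CPM (median 59.5) in air and between 12.3 and 29.1 CPM (median 22.8) in e-cigarette libraries (log2 fold change -1.67, SE 0.21, adjusted p = 1.88e-05), at -1.05, adjusted p = 0.0285 with the covariate. The co-chaperone Dnajb9, named after its values were seen, was between 108 and 216 CPM (median 168) in air and between 63.9 and 81.4 CPM (median 76.0) in e-cigarette libraries (log2 fold change -1.16, SE 0.16, adjusted p = 3.59e-05), at -1.16, adjusted p = 0.0227 with the covariate and at -0.39, adjusted p = 0.0982 against smoke. Hspa5, Creld2 and Dnajb9 were each highest in air 1, 3 and 5. The oxidase Ero1lb (-1.80) and the stress sensor Sesn2 (-1.18) were also called in all 3 fits. In Ero1lb, Sesn2 and Sdf2l1 e-cigarette 1 and 3 were the 2 highest of their group. The transcription factor Xbp1, which drives much of this program after its RNA is spliced, was between 224 and 427 CPM (median 295) in air and between 248 and 409 CPM (median 385) in e-cigarette libraries. Its groups overlapped, and spliced and unspliced forms are not separated in gene counts (log2 fold change 0.22, SE 0.15, adjusted p = 0.28).

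An element known from stress-induced promoters is ERSE, the endoplasmic reticulum stress response element, here searched on both strands as CCAAT and CCACG at its fixed spacing. It is bound by NF-Y at its CCAAT end and by ATF6 at its CCACG end. It lay in 9 of 32 list genes, 27.3% of their windows against 0.12% of all, and the shorter ERSE-II (ATTGG next to CCACG) lay in 2 more, 6.06% of windows against 0.04%. Of the 11 with either element 9 fell (median -0.72, and -0.55 with the covariate). Of the 21 without one, Sdf2l1 and Dnajb9 among them, 7 fell (median -0.29, and -0.28). Among 19 tested genes outside the list with a match, 2 fell and 1 rose. ERSE is shown for 4 members that fell, the stress protein Creld2, the retrotranslocation protein Derl3 (-1.25), the lectin chaperone Calr (-0.66) and the chaperone Hsp90b1 (-0.78, chosen for display after its values were seen).
Creld2, chr15:88819490-88819568, plus strand: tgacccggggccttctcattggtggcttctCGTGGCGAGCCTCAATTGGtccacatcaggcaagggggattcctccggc
Derl3, chr10:75893212-75893290, plus strand: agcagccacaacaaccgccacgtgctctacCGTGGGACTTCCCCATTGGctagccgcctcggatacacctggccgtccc
Calr, chr8:84847045-84847123, minus strand: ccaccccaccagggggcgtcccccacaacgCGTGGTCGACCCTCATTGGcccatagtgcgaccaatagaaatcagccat
Hsp90b1, chr10:86705608-86705686, minus strand: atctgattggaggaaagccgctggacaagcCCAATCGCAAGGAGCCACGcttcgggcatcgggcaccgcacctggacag
Capitals mark the match, which runs in the reverse direction (CGTGG first) in Creld2, Derl3 and Calr. It begins 126, 156, 162 and 212 bases before the start. The Hsp90b1 window holds 2 matches, and the one shown is the first.

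**Figure D3:**
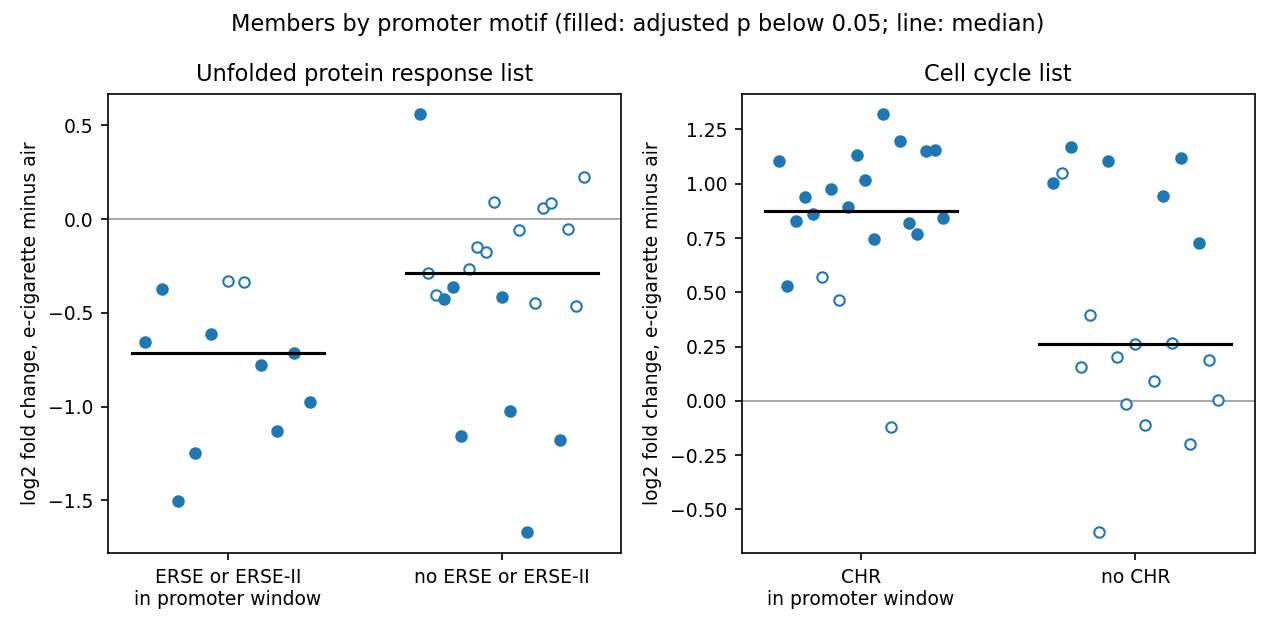
Log2 fold changes, e-cigarette minus air, of the unfolded protein response list (left) and the cell cycle list (right), split by whether the RefSeq promoter window holds the element. Each point is 1 gene, filled where called, and lines are medians: -0.72 with and -0.29 without ERSE or ERSE-II, and 0.88 with and 0.26 without CHR.

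Called genes of the mucin, secretory and gland lists were mostly higher. Of 12 mucin genes 5 rose and 0 fell (median 0.80), of 25 secretory airway genes 10 rose and 0 fell (median 0.59), and of 22 glandular acinar genes 12 rose and 2 fell (median 1.15). These lists moved with air 4, 5 and 6: without them the gland median was 0.70 with 9 higher, and without air 1, 2 and 3 it was 2.82 with 19 higher. For mucins the same medians were 0.40 and 1.15, and for secretory genes 0.35 (7 higher) and 0.99 (13 higher). With the covariate 1 mucin, 0 secretory and 1 gland gene rose (medians 0.56, 0.46 and 0.84), and 3, 4 and 8 at an unadjusted p below 0.05. With the percent of Tg as covariate the medians were -0.18, 0.12 and 0.18, and 0 were called. Without e-cigarette 5, 3 mucins rose. E-cigarette 1 and 3 were the 2 lowest of their group in 2 of the 5 higher mucin genes. The same order held in 4 of the 10 higher secretory and 2 of the 12 higher gland genes, against 14.0% of all higher genes. Among the 12 largest increases named by rule are the secreted proteins Pip (3.84), Bpifb9a (3.31) and Azgp1 (1.63), the protease inhibitor A2ml1 (1.89), the urinary protein Mup6 (2.05), the glycosyltransferases B3gnt6 (1.94) and Abo (1.80), and the cyclase Adcy8 (1.81). Of these, only Abo was called with the covariate, and the adjusted p of the other 7 was 0.0750 (Pip) to 0.213 (Mup6). Without air 4, 5 and 6 and without air 1, 2 and 3, respectively, the fold change was 0.93 and 3.01 for Azgp1, 1.36 and 2.70 for A2ml1, 1.28 and 3.70 for Mup6, 1.29 and 3.09 for B3gnt6, 1.15 and 3.01 for Adcy8, 3.18 and 5.01 for Pip and 2.51 and 5.13 for Bpifb9a. Bpifb9a was at 4.28 without air 3, and was lowest in e-cigarette 1 and 3 among its group. Reads of Mup6 and Bpifb9a can be shared with near-identical copies.

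Membrane mucin Muc16 (ENSMUSG00000109564, chromosome 9, 18495455 to 18674530), which coats the apical surface of airway epithelium, was between 119 and 248 CPM (median 201) in air and between 353 and 628 CPM (median 447) in e-cigarette libraries. The groups did not overlap, and e-cigarette 4, 5 and 6 were the highest (log2 fold change 1.29, SE 0.17, adjusted p = 2.53e-05). Muc16 was called with the covariate at 0.93, adjusted p = 0.0406, with e-cigarette 1 and 3 at 0.98, adjusted p = 0.0173, and against smoke at 0.65, adjusted p = 0.0126. The gel-forming goblet cell mucin Muc5ac was between 3.42 and 9.36 CPM (median 6.26) in air and between 9.85 and 22.1 CPM (median 13.4) in e-cigarette libraries, again with no overlap (log2 fold change 1.22, SE 0.28, adjusted p = 0.0034), but was not called with the covariate (0.87, adjusted p = 0.292) or without air 4, 5 and 6 (0.85, adjusted p = 0.0642). The gland mucin Muc5b was at 2273, 2238, 2969, 565, 146 and 325 CPM in air 1 to 6 and between 1014 and 5442 CPM (median 3649) in e-cigarette libraries, and was not called (log2 fold change 1.21, SE 0.63, adjusted p = 0.179). Elf5 (ENSMUSG00000027186, chromosome 2, 103411688 to 103450989), an ETS transcription factor of glandular epithelium, was between 15.3 and 21.2 CPM (median 18.4) in air and between 31.2 and 47.7 CPM (median 41.3) in e-cigarette libraries. Every e-cigarette library lay above every air library (log2 fold change 1.11, SE 0.14, adjusted p = 1.42e-05), and it was called with the covariate (1.19, adjusted p = 0.00537), with e-cigarette 1 and 3 (1.15, adjusted p = 0.00263) and against smoke (0.68, adjusted p = 0.00205). The blood group transferase Abo, which caps mucosal glycans, was between 0.818 and 2.29 CPM (median 1.62) in air and between 3.97 and 7.33 CPM (median 5.31) in e-cigarette libraries. It was called with the covariate at 1.57, adjusted p = 0.0212, and against smoke at 0.98, adjusted p = 0.00664. A2ml1 was between 386 and 4221 CPM (median 2009) in air and between 5559 and 9098 CPM (median 7157) in e-cigarette libraries, with no overlap, and at 1.63, adjusted p = 0.195 with the covariate. The mucosal chemokine Ccl28, which draws antibody-secreting cells, was between 13.2 and 44.6 CPM (median 26.0) in air and between 50.4 and 96.1 CPM (median 71.9) in e-cigarette libraries (log2 fold change 1.42, SE 0.28, adjusted p = 0.0014), at 0.93, adjusted p = 0.247 with the covariate. Ccl28 was lowest in e-cigarette 1 and 3 among its group.

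Squamous genes were called no more often than others, though 39 of the 45 tested had a log2 fold change above 0. Of 45 squamous differentiation genes 4 rose and 0 fell, a share below the 12.1% of all genes that rose (median 0.75, and 1.07 with the covariate, with 0 called and 6 higher at an unadjusted p below 0.05). With e-cigarette 1 and 3 alone the median was 1.24, with 0 called. At an unadjusted p below 0.05, 12 of the 45 were then higher, against 8.90% of all genes. Without e-cigarette 3, 2 rose, and without e-cigarette 5, 1 rose. Sciellin, Scel, a precursor of the cornified envelope, was between 56.8 and 86.7 CPM (median 74.1) in air and between 88.5 and 195 CPM (median 155) in e-cigarette libraries (log2 fold change 1.01, SE 0.26, adjusted p = 0.00911), and was not called with the covariate (1.09, adjusted p = 0.162) or without air 1, 2 and 3 (0.83, adjusted p = 0.121). Krt13 was not called (log2 fold change 1.01, SE 0.43, adjusted p = 0.0943). Of 20 basal cell and hemidesmosome genes 5 rose and 3 fell (0 and 2 with the covariate, 4 and 3 unadjusted), with 3 higher without any 1 of air 2, air 5 or e-cigarette 2, 3 or 5. The laminin receptor Bcam was between 537 and 601 CPM (median 568) in air and between 95.9 and 246 CPM (median 126) in e-cigarette libraries (log2 fold change -1.90, SE 0.19, adjusted p = 2.73e-06). It had 214 and 246 CPM in e-cigarette 1 and 3 and at most 139 CPM in the others, and was called with the covariate at -1.21, adjusted p = 0.000577. Of 34 ciliated cell genes 2 rose (median 0.19, and 0 with the covariate, 1 unadjusted), 19 without air 4, 5 and 6 and 1 without air 1, 2 and 3. Against smoke 26 of the 34 were higher, where 6.10% of all genes were.

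**Figure D4:**
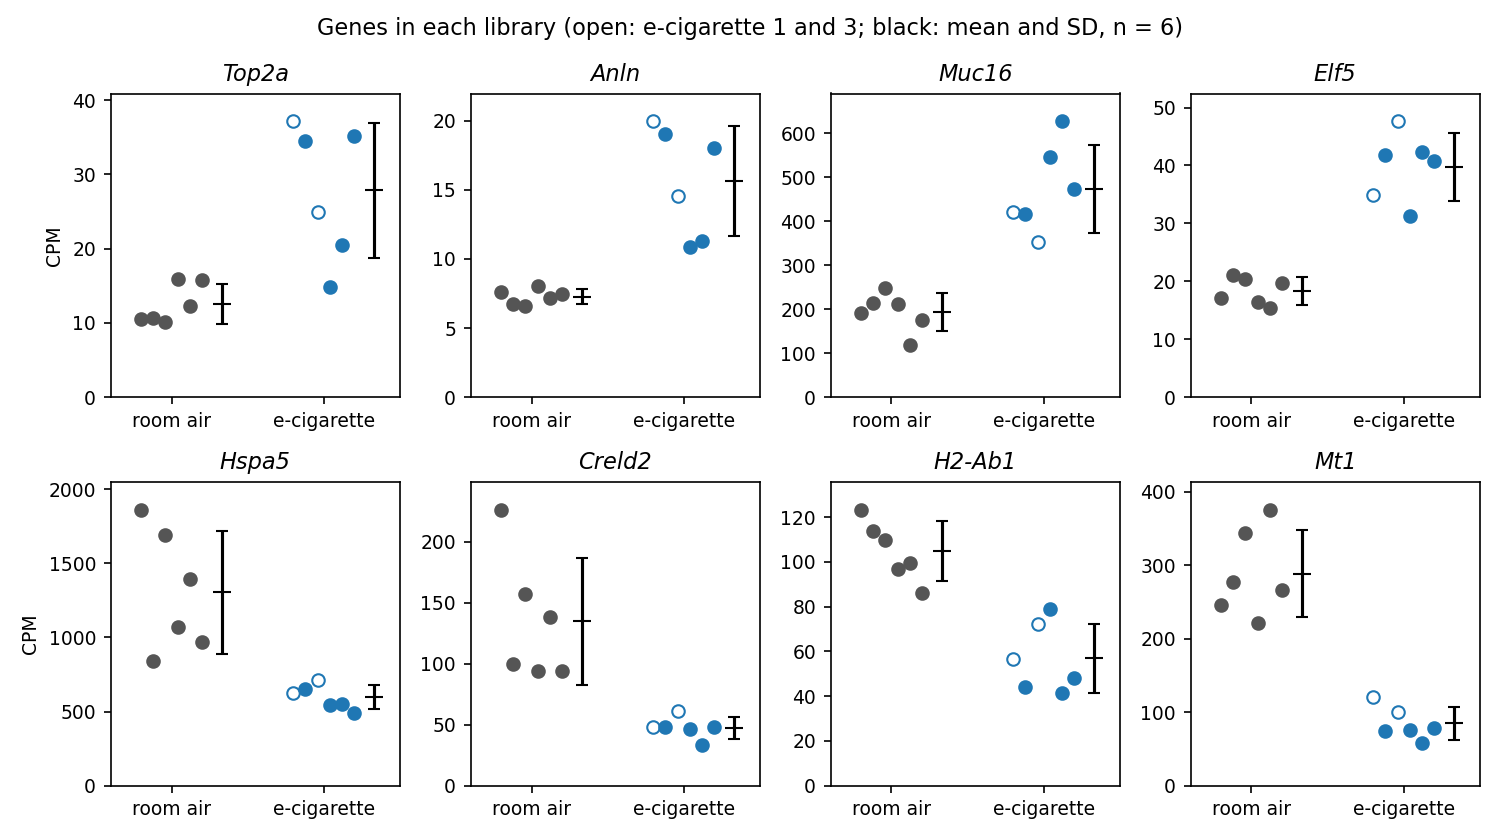
CPM of 8 genes in each air and e-cigarette library, with the mean and SD (n = 6) beside each group and e-cigarette 1 and 3 as open circles. The groups do not overlap except in Top2a, where e-cigarette 4 (14.8 CPM) lies within the air range.

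Antigen presentation genes were lower. MHC class II molecules show peptides to helper T cells, and class I molecules show them to cytotoxic T cells. Of 17 class II genes 8 fell and 0 rose (median -0.54), and of 20 class I genes 11 fell and 0 rose (median -0.40). In 0 of these 19 genes were e-cigarette 1 and 3 the 2 highest or the 2 lowest of their group. With the covariate 1 class II and 0 class I genes were called (medians -0.56 and -0.33; 7 and 8 lower at an unadjusted p below 0.05), and with e-cigarette 1 and 3 alone 3 and 0 (medians -0.39 and -0.36; 7 and 10 unadjusted). Without air 1, 2 and 3 the counts were 6 and 4. The summed class II list reached 732 to 908 CPM in air, against 421 to 679 CPM with e-cigarette aerosol. Against smoke 4 class II and 10 class I genes were lower, where 10.4% of all genes were.

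The invariant chain Cd74, which escorts class II molecules, was between 243 and 339 CPM (median 277) in air and between 88.4 and 218 CPM (median 116) in e-cigarette libraries. E-cigarette 4 was the highest of its group at 218 CPM, and the groups did not overlap (log2 fold change -1.12, SE 0.20, adjusted p = 0.000477). It was called with the covariate at -1.25, adjusted p = 0.0453, with e-cigarette 1 and 3 at -1.04, adjusted p = 0.0129 and against smoke at -0.73, adjusted p = 0.0175. The class II beta chain H2-Ab1 was between 86.1 and 123 CPM (median 105) in air and between 41.6 and 78.9 CPM (median 52.3) in e-cigarette libraries (log2 fold change -0.88, SE 0.15, adjusted p = 0.000321), at -0.81, adjusted p = 0.0849 with the covariate. The alpha chain H2-Aa was between 105 and 175 CPM (median 121) in air and between 59.5 and 111 CPM (median 82.7) in e-cigarette libraries (log2 fold change -0.61, SE 0.15, adjusted p = 0.00447), with e-cigarette 4 inside the air range. The class II regulator Ciita was not called (log2 fold change -0.56, SE 0.21, adjusted p = 0.0512), but was without air 2 (-0.62, adjusted p = 0.0416) or e-cigarette 4 (-0.69, adjusted p = 0.0210). Reads of H2 genes can be shared between related copies. Of 22 macrophage and dendritic cell markers 3 rose and 1 fell (median 0.11). The dendritic cell factor Zbtb46 was the member that fell (log2 fold change -0.93, SE 0.13, adjusted p = 4.99e-05). It was not called with the covariate (-0.71, adjusted p = 0.0657) and was highest in e-cigarette 1 and 3 among its group.

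Among 28 cytokine and chemokine genes 4 rose and 2 fell, where 12.1% of all genes rose and 13.0% fell. With the covariate 0 rose and 2 fell (2 and 6 unadjusted). Cxcl13, which draws B cells into lymphoid follicles, was between 23.8 and 38.8 CPM (median 29.4) in air and between 3.41 and 7.88 CPM (median 4.14) in e-cigarette libraries. All e-cigarette libraries lay below all air libraries (log2 fold change -2.55, SE 0.23, adjusted p = 2.11e-06). It was also called with the covariate (-1.84, adjusted p = 0.00214) and against smoke (-1.91, adjusted p = 4.78e-05), and stood at 7.55 and 7.88 CPM in e-cigarette 1 and 3 and at most 4.60 CPM in the rest. Cxcl16 was between 21.2 and 34.3 CPM (median 24.0) in air and between 12.7 and 18.6 CPM (median 15.0) in e-cigarette libraries (log2 fold change -0.78, SE 0.12, adjusted p = 0.000145), at -0.82, adjusted p = 0.0406 with the covariate, and did not pass against smoke (-0.21, adjusted p = 0.28). The epithelial alarmin Il33 was between 12.3 and 28.2 CPM (median 22.7) in air and between 17.5 and 61.4 CPM (median 49.9) in e-cigarette libraries (log2 fold change 1.12, SE 0.28, adjusted p = 0.00721). E-cigarette 6, at 17.5 CPM, lay inside the air range, and the call held with e-cigarette 1 and 3 (1.28, adjusted p = 0.0333) but not with the covariate (1.06, adjusted p = 0.197) or without air 1, 2 and 3 (0.92, adjusted p = 0.0869). Of 32 interferon-stimulated genes 4 fell and 0 rose (median -0.15), a share near the 13.0% of all genes that fell. With the covariate 0 were called (3 lower unadjusted), and with e-cigarette 1 and 3 alone 0 (5 lower unadjusted). The chemokine Cxcl10, at -1.57, lost its call in both (-1.40, adjusted p = 0.147 and -1.31, adjusted p = 0.14) and was highest in e-cigarette 1 and 3 among its group. The count of 4 was 1 without air 5 and 2 without air 6 or e-cigarette 2, 3 or 5. Markers of B cells and plasma cells gave 1 higher and 4 lower of 10, of thymocytes and T cells 1 and 2 of 11, of neutrophils 1 and 0 of 7 (0 and 0 without air 4), and of mast cells 3 and 0 of 10 (5 higher without air 1 or without e-cigarette 6).

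Skeletal muscle transcripts took a larger share. Of 32 fast muscle genes 24 rose and 0 fell (median 0.55), of 17 slow muscle genes 7 rose (median 0.66) and of 14 myogenic regulators 7 rose (median 0.43). With the covariate 0, 1 and 1 were called (medians 0.37, 0.30 and 0.27), and 11, 4 and 3 rose at an unadjusted p below 0.05. Without air 4, 5 and 6, 12 fast muscle genes rose. In 6 of 24 higher fast and 2 of 7 higher slow genes, e-cigarette 1 and 3 were the 2 lowest of their group. The order also held in 1 of 7 higher myogenic regulators, against 14.0% of all higher genes. Myh4 had this order too. Myh4, the fastest myosin, was between 4284 and 10797 CPM (median 7772) in air and between 10773 and 15850.0 CPM (median 12012) in e-cigarette libraries, with e-cigarette 3 inside the air range (log2 fold change 0.72, SE 0.17, adjusted p = 0.00379), and was not called with the covariate (0.47, adjusted p = 0.36). The calcium store protein Casq2 of slow and cardiac fibres was between 13.1 and 23.5 CPM (median 18.9) in air and between 31.9 and 53 CPM (median 44.2) in e-cigarette libraries, with no overlap (log2 fold change 1.18, SE 0.14, adjusted p = 1.42e-05), and was called with the covariate at 1.17, adjusted p = 0.00726 and with e-cigarette 1 and 3 at 1.24, adjusted p = 0.00151. Against smoke it was at 0.41, adjusted p = 0.0504. Sarcolipin, Sln, which uncouples the calcium pump of muscle, was between 38.6 and 64.9 CPM (median 40.5) in air and between 55.8 and 108 CPM (median 84.8) in e-cigarette libraries, with e-cigarette 5 inside the air range (log2 fold change 0.93, SE 0.18, adjusted p = 0.000829), at 1.11, adjusted p = 0.034 with the covariate. Summed fast muscle genes reached at most 50797 CPM in air (lowest 30351), below the lowest e-cigarette library at 52909 CPM (highest 68695).

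Nicotine acts on the acetylcholine receptors of this tissue. Of 16 nicotinic receptor and neuromuscular junction genes 7 rose and 0 fell (median 0.54), 0 with the covariate (median 0.48, and 6 at an unadjusted p below 0.05), and 3 without air 4, 5 and 6. The muscle receptor subunit Chrna1 was between 4.72 and 8.90 CPM (median 7.07) in air and between 9.44 and 14.6 CPM (median 13.0) in e-cigarette libraries, with no overlap (log2 fold change 0.86, SE 0.15, adjusted p = 0.000416), and was at 0.54, adjusted p = 0.2 with the covariate and 0.41, adjusted p = 0.0708 against smoke. Its partner Chrnd was between 2.63 and 6.93 CPM (median 5.26) in air and between 7.96 and 10.1 CPM (median 8.77) in e-cigarette libraries (log2 fold change 0.83, SE 0.21, adjusted p = 0.00594), and was not called without air 4, 5 and 6 (0.45, adjusted p = 0.0815). The beta subunit Chrnb1 was not called (log2 fold change -0.31, SE 0.12, adjusted p = 0.0662), but was called lower without air 4, air 5 or e-cigarette 6 (-0.37, -0.35 and -0.36). The subunits Chrna1 and Chrnd are expressed by muscle, and muscle genes as a list were higher in the same libraries. Chrnb1 did not follow them, and the part of muscle content was not tested. The neuronal subunit Chrna7 had too few counts to be tested.

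In 3 lists of energy metabolism, called genes were mostly higher by small amounts. Of 31 nuclear genes of oxidative phosphorylation 15 rose and 1 fell (median 0.34), of 28 fatty acid oxidation genes 10 rose and 1 fell (median 0.20), and of 33 lipogenesis and sterol genes 13 rose and 2 fell (median 0.31). With the covariate 1, 2 and 1 rose, and 15, 13 and 13 at an unadjusted p below 0.05. Scaled to total counts, the higher and lower calls were 8 and 1, 3 and 2, and 6 and 3. The complex I subunit Ndufs1 was between 172 and 205 CPM (median 193) in air and between 247 and 318 CPM (median 297) in e-cigarette libraries, with no overlap (log2 fold change 0.58, SE 0.08, adjusted p = 3.30e-05), and at 0.48, adjusted p = 0.0385 with the covariate. Hadhb of the trifunctional protein was between 214 and 239.7 CPM (median 226) in air and between 233 and 363 CPM (median 298) in e-cigarette libraries (log2 fold change 0.39, SE 0.09, adjusted p = 0.00215). E-cigarette 6 lay inside the air range at 233 CPM, and the call held with the covariate at 0.50, adjusted p = 0.0431. Hadhb was highest in e-cigarette 1 and 3 among its group. The acetate-activating enzyme Acss2 was between 38.2 and 48.8 CPM (median 40.3) in air and between 68.6 and 79.8 CPM (median 72.0) in e-cigarette libraries, with no overlap (log2 fold change 0.80, SE 0.13, adjusted p = 0.000154). It was called with the covariate at 0.83, adjusted p = 0.029 and did not pass against smoke (-0.17, adjusted p = 0.389). The adipocyte hormone Adipoq was not called (log2 fold change -0.31, SE 0.14, adjusted p = 0.102) except without e-cigarette 1 (-0.44, adjusted p = 0.0144). Of 20 adipocyte genes 2 rose and 3 fell (1 lower without air 1 and 6 without e-cigarette 1), where 12.1% of all genes rose and 13.0% fell.

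Of 12 targets of the aryl hydrocarbon receptor (AhR), the sensor of planar aromatic chemicals, 4 rose and 2 fell (median 0.25), where 12.1% of all genes rose and 13.0% fell. With the covariate 1 rose and 1 fell (6 and 2 unadjusted). The receptor's repressor Ahrr (ENSMUSG00000021575, chromosome 13, 74211118 to 74292331) was between 0.175 and 0.449 CPM (median 0.235) in air and between 0.520 and 1.24 CPM (median 0.704) in e-cigarette libraries, with no overlap (log2 fold change 1.43, SE 0.33, adjusted p = 0.00367). The level was low, and the call was lost with the covariate (1.66, adjusted p = 0.0808) and with e-cigarette 1 and 3 (1.25, adjusted p = 0.137), at similar fold changes. Smoke libraries held 1.14 ± 0.390 CPM (SD, n = 6), and the difference between the exposures did not pass (-0.54, adjusted p = 0.219). Cyp1a1, the enzyme most tightly tied to this receptor, was between 0.301 and 1.22 CPM (median 0.672) in air and between 0.681 and 1.06 CPM (median 0.766) in e-cigarette libraries. Air and e-cigarette overlapped (log2 fold change 0.29, SE 0.29, adjusted p = 0.493), while e-cigarette lay below smoke, at -1.88, adjusted p = 0.000107. Cyp1b1 (log2 fold change 0.22, SE 0.20, adjusted p = 0.461) and Tiparp (log2 fold change -0.16, SE 0.15, adjusted p = 0.468) did not pass. The glucuronosyltransferase Ugt1a7c was between 1.15 and 3.33 CPM (median 2.23) in air and between 2.53 and 7.54 CPM (median 6.30) in e-cigarette libraries (log2 fold change 1.36, SE 0.30, adjusted p = 0.00252), at 1.62, adjusted p = 0.0494 with the covariate. E-cigarette 6 lay inside the air range, and the gene shares exons with others of its cluster. Retinol-storing Lrat was between 7.71 and 17.9 CPM (median 12.3) in air and between 0.520 and 3.63 CPM (median 0.965) in e-cigarette libraries (log2 fold change -2.88, SE 0.41, adjusted p = 7.73e-05), at -1.58, adjusted p = 0.036 with the covariate. E-cigarette 1 and 3 were the highest of their group in Lrat. In the RefSeq promoters the AhR core (letters TNGCGTG on either strand) lay in 1 of the 12 list genes, Ahrr, 8.33% of windows against 5.07% of all. The stretch before the Ahrr start is shown with the core in capitals, 29 bases before the start.
Ahrr, chr13:74292332-74292390, minus strand: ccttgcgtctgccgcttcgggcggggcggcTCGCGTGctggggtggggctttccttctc

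Oxidant defence genes were called about as often as all genes (12.1% higher, 13.0% lower). Of 41 NRF2 and glutathione genes 5 rose and 6 fell (median 0.00), and of 38 genes of foreign compound metabolism 8 rose and 4 fell (median 0.06). Scaled to total counts, the split was 3 higher and 11 lower in the first list (median -0.10) and 3 higher and 6 lower in the second (median -0.06). With the covariate 0 were called in either (8 higher and 5 lower, and 6 and 2, unadjusted). Without any 1 of air 2, air 3 or e-cigarette 3, 4 or 5 the 8 became 3 to 5. The NRF2 reporter gene Nqo1 was between 19.0 and 29.3 CPM (median 22.9) in air and between 21.2 and 39.4 CPM (median 31.7) in e-cigarette libraries (log2 fold change 0.41, SE 0.18, adjusted p = 0.103), and Gclc, which limits glutathione synthesis, was between 82.4 and 173 CPM (median 102) in air and between 76.0 and 100.3 CPM (median 92.7) in e-cigarette libraries (log2 fold change -0.29, SE 0.14, adjusted p = 0.14). Aldehyde dehydrogenase Aldh3a1 was between 209.9 and 384 CPM (median 328) in air and between 356 and 1123 CPM (median 647) in e-cigarette libraries (log2 fold change 1.18, SE 0.33, adjusted p = 0.0135). E-cigarette 6 overlapped air at 356 CPM, and the call was lost with the covariate (1.32, adjusted p = 0.154) and in both smaller air groups (1.12, adjusted p = 0.0901 and 1.23, adjusted p = 0.0757). Aox3, of the aldehyde oxidase family that turns the nicotine iminium ion into cotinine, was between 61.6 and 114 CPM (median 76.3) in air and between 107 and 144 CPM (median 126) in e-cigarette libraries (log2 fold change 0.63, SE 0.13, adjusted p = 0.0018), at 0.54, adjusted p = 0.193 with the covariate. Aox3 was lowest in e-cigarette 1 and 3 among its group.

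Metallothioneins bind zinc and other metals and rise with metals and glucocorticoids. Of 10 metallothionein and zinc genes 5 fell and 0 rose (median -0.51), and in 4 of the 5 e-cigarette 1 and 3 were the 2 highest of their group. Mt1 (ENSMUSG00000031765, chromosome 8, 94179082 to 94180327) was between 221 and 376 CPM (median 272) in air and between 58.1 and 121 CPM (median 76.9) in e-cigarette libraries, with no overlap (log2 fold change -1.77, SE 0.22, adjusted p = 2.10e-05), and was called with the covariate at -1.36, adjusted p = 0.0318, with e-cigarette 1 and 3 at -1.40, adjusted p = 0.0246 and against smoke at -1.05, adjusted p = 0.00302. The zinc importer Slc39a14 was between 61.3 and 67.3 CPM (median 65.0) in air and between 21.6 and 38.1 CPM (median 28.0) in e-cigarette libraries (log2 fold change -1.17, SE 0.12, adjusted p = 2.65e-06), at -0.93, adjusted p = 0.00696 with the covariate. Of 25 endothelial genes 7 fell and 0 rose (median -0.23), 14 without air 4, 5 and 6 and 4 without air 1, 2 and 3. With the covariate 2 fell (5 unadjusted). The angiogenic factor Vegfa was between 542 and 747 CPM (median 626) in air and between 183 and 360.2 CPM (median 267) in e-cigarette libraries (log2 fold change -1.24, SE 0.15, adjusted p = 1.45e-05), at -0.71, adjusted p = 0.0278 with the covariate and -1.07, adjusted p = 0.000131 against smoke. In Vegfa too e-cigarette 1 and 3 were the highest of their group. The matrix glycoprotein Tnc was between 77.5 and 107 CPM (median 99.3) in air and between 27.0 and 58.5 CPM (median 39.9) in e-cigarette libraries (log2 fold change -1.24, SE 0.16, adjusted p = 1.78e-05), at -0.90, adjusted p = 0.0362 with the covariate. Tnc was likewise highest in e-cigarette 1 and 3 among its group. Of 46 fibrillar matrix genes 12 rose and 4 fell (19 higher without e-cigarette 6), and of 23 cartilage genes 9 rose and 1 fell. With the covariate no higher call was left in either: matrix had 0 higher and 1 lower (median 0.10, with 0 and 5 unadjusted), and cartilage 0 and 0 (median 0.50, with 1 and 1 unadjusted). Cartilage depended on air 4, 5 and 6: its median was 1.08, 0.58 without them (2 higher) and 2.29 without air 1, 2 and 3 (18 higher). Leaving out 1 library changed the 9 to 5 without air 4, 5 or 6, 3 without e-cigarette 4 and 4 without e-cigarette 5.

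Immediate early genes, which fire within minutes of a stimulus or of handling, were lower mainly against air 1, 2 and 3. Of 31 such genes 13 fell and 0 rose (median -0.83), 25 without air 4, 5 and 6 (median -1.20) and 6 without air 1, 2 and 3 (median -0.11). Without air 4, 20 fell. With the covariate 0 were called (median -0.66, and 9 lower at an unadjusted p below 0.05). Jun was between 107 and 189 CPM (median 117) in air and between 47.9 and 78.8 CPM (median 62.9) in e-cigarette libraries, with no overlap (log2 fold change -1.03, SE 0.14, adjusted p = 3.66e-05), and was called in both smaller air groups, at -1.17, adjusted p = 0.00016 and -0.91, adjusted p = 0.000186. Dusp2 was between 28.5 and 344 CPM (median 67.1) in air and between 1.24 and 10.4 CPM (median 2.59) in e-cigarette libraries, with air 3 far above the others. Of 24 heat shock and chaperone genes 7 fell and 1 rose (median -0.24), 12 lower without air 4, 5 and 6 (median -0.41). Without air 1, 2 and 3, 7 fell and 3 rose (median -0.02), and with the covariate 1 fell (8 unadjusted). The co-chaperone Dnaja1 was between 182 and 462 CPM (median 278) in air and between 120.5 and 164 CPM (median 152) in e-cigarette libraries (log2 fold change -0.97, SE 0.17, adjusted p = 0.00028), at -1.06, adjusted p = 0.0439 with the covariate and 0.35, adjusted p = 0.17 against smoke. Hspa1a, whose reads can be shared with its near-identical copy Hspa1b, was between 48.0 and 165 CPM (median 55.9) in air and between 11.1 and 36.4 CPM (median 23.3) in e-cigarette libraries (log2 fold change -1.81, SE 0.33, adjusted p = 0.000739), at -1.59, adjusted p = 0.143 with the covariate. Against smoke 6 of the 24 were higher and 0 lower, where 6.10% of all genes were higher and 10.4% lower.

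**Figure D5:**
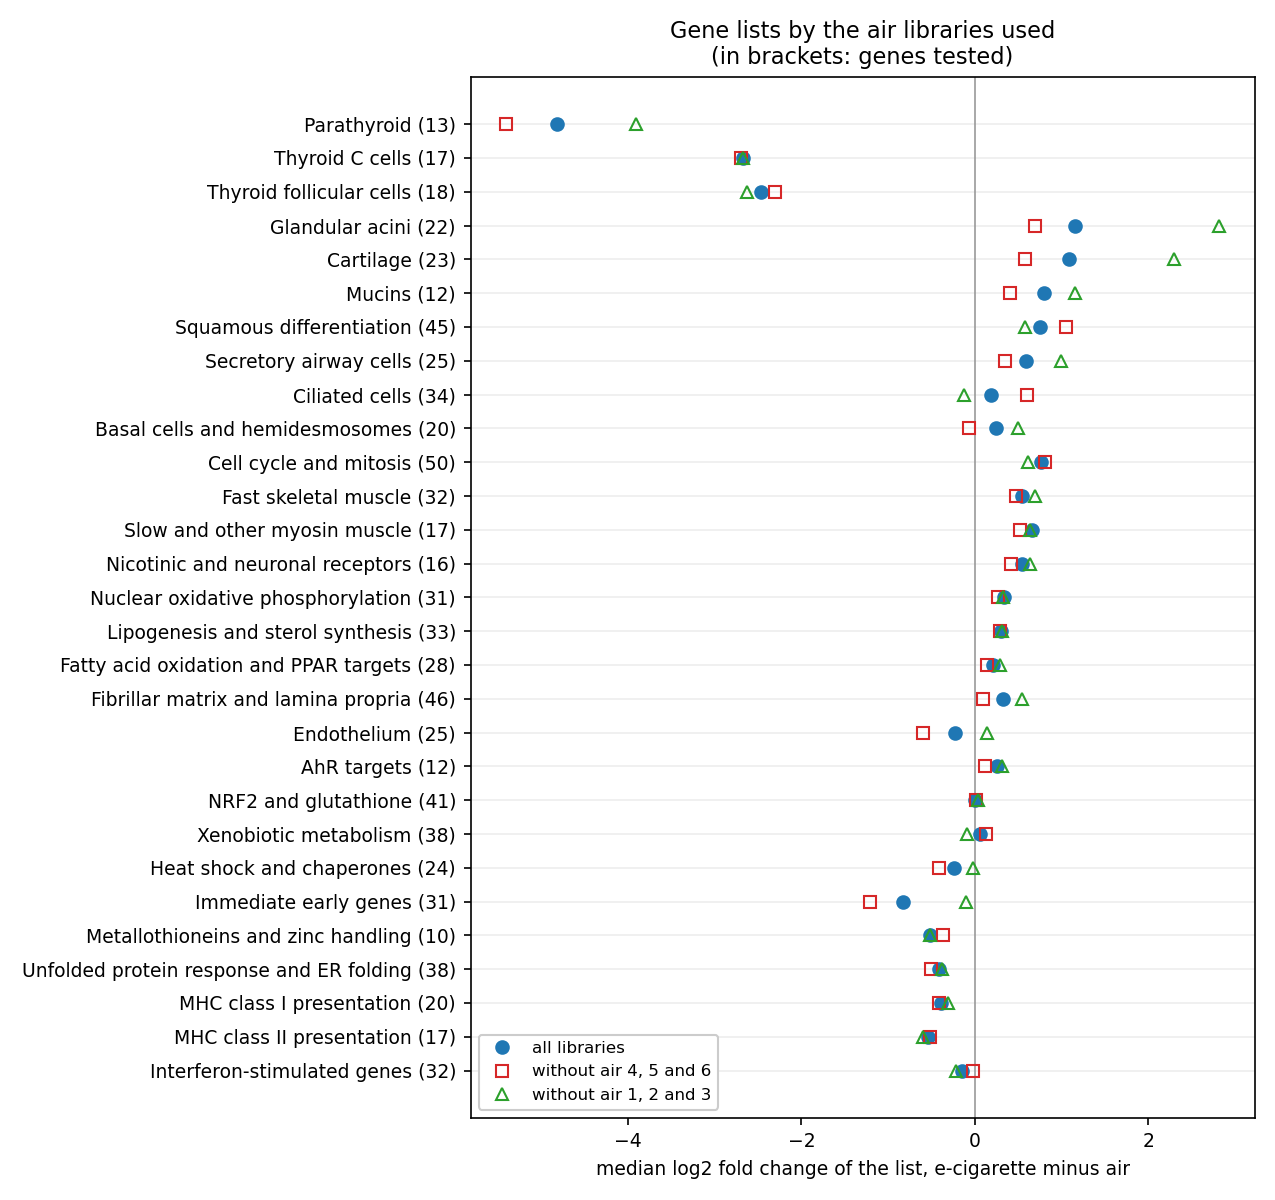
Median log2 fold change of each gene list, e-cigarette minus air, from all libraries (filled circles), without air 4, 5 and 6 (squares) and without air 1, 2 and 3 (triangles). The medians of glands (0.70 and 2.82) and cartilage (0.58 and 2.29) differ widely between the last 2, and the unfolded protein response list stays between -0.51 and -0.38.

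Set directly against smoke, e-cigarette aerosol gave 2897 called genes (16.5%), 1069 higher (6.10%) and 1828 lower (10.4%). Smoke libraries held as much Tg as air, so the same difference in thyroid content lies in this comparison. Ciliated (26 of 34 higher), muscle (15 of 32 fast muscle genes higher) and cell cycle genes were higher than in smoke, and the unfolded protein response, class I and adipocyte lists (13 of 38, 10 of 20 and 10 of 20 lower) were lower. The comparisons with air and with smoke share the e-cigarette libraries.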

How the data were processed

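Whole larynges were sequenced as 18 bulk RNA libraries, 6 per group, with 12 in this comparison and 6 smoke libraries as reference. The deposited values are raw read counts per gene, which the authors made with STAR and featureCounts 1.5.0-p3 on GRCm38 (mm10), per the submitters' processing notes. No source used here gives the STAR version or annotation release. The labels name NEBNext Ultra libraries, and whether counting used strand is not stated.

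All 18 libraries were fitted together in edgeR 4.0.16 (R 4.3.3): filterByExpr (minimum count 10, minimum total 15), TMM scaling, the quasi-likelihood F test with robust dispersion, and Benjamini-Hochberg adjustment over 17537 genes, with adjusted p below 0.05 as a call. SE is the absolute log2 fold change divided by the square root of F. CPM use TMM-scaled totals. The covariate is log2 Tg CPM with a prior count of 2, and Tg itself is left out of that fit. Promoter windows of 250 bases before and 50 after the start came from RefSeq (GRCm38.p6).

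Genes were named by rule: first, the 12 largest changes in each direction among called protein-coding genes outside the 3 gland lists with a group mean of at least 5 CPM, groups that did not overlap and the same sign in the fits for Tg, unnamed gene models left out; second, up to 4 called members per list with the smallest p; last, a fixed set of genes, such as Cyp1a1 and Muc5b, whatever their p. Members and lists were chosen with earlier results of these data known. Alternatives used DESeq2 1.42.0, limma 3.58.1 voom, other scalings and filters, and left out libraries. On data simulated for this comparison over 17094 genes, 50.7% of 1.5-fold, 85.1% of 2-fold and 97.0% of 4-fold changes were recovered, with 6 unchanged genes called. The simulation drew every group from the air means, with 67, 67 and 66 genes changed and no difference in thyroid content. It checks the fitting step and gives no error rate for the real comparison. Some genes that the rule names are not reported here.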

Additional observations from a re-analysis of the deposited data

Results flagged for a closer look

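Single libraries stood apart from the other 5 of their group by Dixon's ratio at the 95% level in 8 of 164 gene and group combinations tested over 82 named genes. Chance flags about 1 in 20 such groups. Air 3 was the high library in 4 of the 8. In air 3, Dusp2 stood at 344 CPM against 28.5 to 96.0 CPM in the other air libraries, Bpifb9a at 12.6 against 0.854 to 3.07, Rnf183 at 11.7 against 4.95 to 7.46, and Sesn2 at 36.6 against 16.6 to 23.2. In air 2, Jun stood at 189 CPM against 107 to 130 and Sln at 64.9 against 38.6 to 47.2. In air 5, H2-Aa stood at 175 CPM against 105 to 127. The low library was e-cigarette 1 for Xbp1, at 248 CPM against 360 to 409 in the other 5.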

How the results depend on the processing

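The count of 4406 called genes was 364 with log2 Tg as covariate, 1 with the percent of Tg, 688 with e-cigarette 1 and 3 alone, 2466 at an adjusted p below 0.01, 1077 at a fold change of at least 2, and 3678 to 4276 when each library was left out in turn. DESeq2 gave 4906, voom 4394, no filter 3655 and a fit without the smoke libraries 3607. The count of 364 was 1 with the percent of Tg, and 48 to 416 with a library left out, falling to 48 without e-cigarette 1, 108 without e-cigarette 3 and 235 without e-cigarette 4. Scaled to total counts, 1929 genes did not overlap. With the percent of Tg, list medians changed sign for mucins (0.80 to -0.18) and basal cells (0.24 to -0.49), among others. They shrank for glands (1.15 to 0.18), secretory genes (0.59 to 0.12), fast muscle (0.55 to 0.20) and oxidative phosphorylation (0.34 to 0.05). The cell cycle and unfolded protein response medians kept their signs, at 0.55 and -0.57. Log2 fold changes changed sign for Acan with the percent of Tg (-0.12), and for Xbp1 with the percent of Tg (-0.32) and without air 4, 5 and 6 (-0.057); neither was called. The cause was not tested. Low counts limit genes such as Ahrr, near 1 CPM.

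The shared replicate numbers do not pair the libraries: deviations of same-numbered air and e-cigarette libraries correlated at -0.305 to -0.019, and none matched its own number best. With the replicate block 3836 genes were called against air, 2386 against smoke, and 136 with the block and log2 Tg together.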
